A study of Rattus norvegicus with 12 samples.

Results

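Dbp, Tef, Hlf and Nfil3, transcription factors of the circadian clock's output, were read on arrays of liver and renal cortex from male rats dosed with trichloroethylene (TCE), a chlorinated solvent, or with corn oil alone. The members were all probe sets (groups of short oligonucleotides on the array that read 1 transcript) whose platform annotation gives exactly 1 symbol and that symbol is one of these 4 genes. They were 9 of the 20826 singly named probe sets, and 4 of 14217 genes: 1 probe set for Dbp, 3 for Tef, 4 for Hlf and 1 for Nfil3. The genes were picked with their TCE and control values in these arrays already known, so their levels and differences are given as a description, with no test. The 4 groups were TCE liver, control liver, TCE renal cortex (called kidney here) and control kidney, with 3 arrays each and 12 in all. All rats were males, 7 to 9 weeks old, of a strain that the labels call F-344 and also Wistar-derived. The TCE rats received 16 mg/kg per day by mouth for 3 days in corn oil at 5 ml/kg, the control rats received the oil for the same 3 days, and all were killed 24 h after the last dose. Lights came on at clock hour 4 for 12 h. No source used here gives the hour of killing, or says whether it was the same for TCE and control rats. In genes that cycle over the day, TCE and the hour of killing therefore cannot be told apart. Whether a liver and a kidney array with 1 number came from 1 rat is not stated.

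The 3 proteins Dbp, Tef and Hlf form the PAR bZIP family, transcription factors with a basic leucine zipper next to a region rich in proline and acidic residues. They bind a DNA element called the D-box as dimers and activate transcription. In rodent liver Dbp transcription is driven by Bmal1 and Clock through E-boxes and cycles strongly over the day, which makes Dbp a direct output of the circadian clock. Nfil3, also called E4bp4, lacks the proline and acidic rich region, binds the same element and represses from it. It is known to cycle opposite to Dbp, under control of the REV-ERB repressors Nr1d1 and Nr1d2 and the ROR activators. D-box targets in liver and kidney include enzymes and regulators of drug, heme and bile acid metabolism.

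In GRCr8 annotation Dbp lies on chromosome 1 from 105312256 to 105317205, Tef on chromosome 7 from 115197180 to 115221930, Hlf on chromosome 10 from 75651320 to 75708979 and Nfil3 on chromosome 17 from 12432376 to 12447605; all are protein coding. RefSeq promoter windows of 300 bases, 250 before to 50 after a gene's start, were matched by symbol for 3 of the 4 members. They are shown for those 3, Dbp, Tef and Nfil3. Those of Per2, a period gene of the clock, and Alb, the albumin gene, are added because they hold an exact D-box. Windows are printed 5′ to 3′ on the gene's own strand, in build GRCr8. Capitals mark every exact match to the E-box letters CACGTG and the D-box letters TTATGTAA, or TTACATAA where the D-box lies on the other strand. Sites that differ from these letters were not searched for and stay in lower case.
Dbp promoter, chr1:105312006-105312305, plus strand: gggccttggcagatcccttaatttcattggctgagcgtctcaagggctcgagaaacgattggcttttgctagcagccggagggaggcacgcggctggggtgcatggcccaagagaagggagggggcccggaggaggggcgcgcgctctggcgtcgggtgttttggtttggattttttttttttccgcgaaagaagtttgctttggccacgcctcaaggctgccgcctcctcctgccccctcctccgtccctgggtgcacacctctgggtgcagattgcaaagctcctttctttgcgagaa
Tef promoter, chr7:115206577-115206876, plus strand: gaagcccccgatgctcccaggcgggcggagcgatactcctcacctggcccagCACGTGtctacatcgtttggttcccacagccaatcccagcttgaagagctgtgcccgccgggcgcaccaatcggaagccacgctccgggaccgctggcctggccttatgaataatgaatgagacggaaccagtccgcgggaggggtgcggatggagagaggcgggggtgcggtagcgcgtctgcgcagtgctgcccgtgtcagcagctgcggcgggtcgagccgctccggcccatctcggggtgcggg
Nfil3 promoter, chr17:12432126-12432425, plus strand: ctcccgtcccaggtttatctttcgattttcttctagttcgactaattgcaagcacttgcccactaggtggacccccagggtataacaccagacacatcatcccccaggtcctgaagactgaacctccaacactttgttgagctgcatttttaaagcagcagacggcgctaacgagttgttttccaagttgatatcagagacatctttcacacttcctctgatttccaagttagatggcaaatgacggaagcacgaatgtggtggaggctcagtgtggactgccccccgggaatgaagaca
Per2 promoter, chr9:99496944-99497243, minus strand: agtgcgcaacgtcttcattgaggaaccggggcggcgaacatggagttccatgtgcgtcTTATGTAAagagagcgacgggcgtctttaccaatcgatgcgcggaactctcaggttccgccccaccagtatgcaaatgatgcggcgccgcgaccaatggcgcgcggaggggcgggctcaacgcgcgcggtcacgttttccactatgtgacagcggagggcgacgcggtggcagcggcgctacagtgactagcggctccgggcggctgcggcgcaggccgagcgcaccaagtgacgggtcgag
Alb promoter, chr14:17906930-17907229, minus strand: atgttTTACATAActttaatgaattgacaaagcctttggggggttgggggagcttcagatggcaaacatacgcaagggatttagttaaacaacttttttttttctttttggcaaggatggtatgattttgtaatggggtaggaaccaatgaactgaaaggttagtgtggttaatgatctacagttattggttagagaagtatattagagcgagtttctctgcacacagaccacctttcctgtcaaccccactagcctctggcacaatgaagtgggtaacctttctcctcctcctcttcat
The Tef window begins inside the annotated gene span, at the start of one of its transcripts.

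Counted from the start, with -1 the base before it, the Tef window holds 1 E-box, at -198, while the Dbp and Nfil3 windows hold neither motif. Sequence outside the windows was not searched, so sites further upstream or within the genes were not read. The exact D-box match in the Per2 window begins at -192, and that in the Alb window, on the other strand, at -245. Both strands were searched and the motifs do not overlap. Over all 33469 promoter windows of the same length, 6.42% hold CACGTG and 0.893% hold TTATGTAA. Of 18 windows of core clock genes 4 hold the E-box (Bhlhe40, Bhlhe41, Ciart and Nr1d1) and 1 the D-box. Of 20 windows of genes reported as D-box targets, 3 hold the E-box and 2 the D-box, in Alb and Cyp2b2. A letter match is not a bound site.

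The arrays read as their labels say. Array medians were 3.51 to 3.54 log2 units in liver and 3.88 to 3.96 in kidney, the lowest correlation across probe sets between arrays of 1 group was 0.993, and the lowest value of the table was 2.17. All 7 hepatocyte markers were bright in liver, and all 5 proximal tubule and 4 distal tubule markers were bright in kidney. The 3 measured erythroid markers summed to 13.4 to 14.0 log2 units in TCE livers and 14.3 to 14.6 in control livers. The 3 measured podocyte markers summed to 10.8 to 11.2 in TCE kidneys and 10.4 to 10.7 in control kidneys. As a measure of RNA quality, the Gapdh probe set at the 3' end exceeded that at the 5' end by 1.21 to 1.70 log2 units in TCE livers and 0.78 to 0.86 in control livers, and 0.51 to 0.87 in TCE kidneys and 0.85 to 1.05 in control kidneys. The same gap for Actb was 5.09 to 5.67 in TCE livers and 4.31 to 5.24 in control livers, and 4.2 to 4.36 in TCE kidneys and 4.40 to 4.56 in control kidneys. The groups did not overlap for erythroid markers and the Gapdh gap in liver, for podocyte markers in either tissue (6.77 to 7.24 in TCE livers and 6.08 to 6.52 in control livers) and for the Actb gap in kidney. When the Gapdh gap entered the fit as a covariate, the liver differences given below became 4.71 ± 0.59 for Dbp, 0.34 ± 0.22 for Tef, 0.77 ± 0.48 for Hlf and -0.83 ± 0.80 for Nfil3 (SE). In kidney they became 1.70 ± 0.18 for Dbp, 0.46 ± 0.24 for Tef, 0.45 ± 0.13 for Hlf and -1.30 ± 0.15 for Nfil3 (SE); the part of the cell markers in the results was not tested. In whole tissue, fewer cells of a type and less RNA per cell cannot be told apart.

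In liver, Dbp and Tef were higher after TCE and Nfil3 was lower, while Hlf was nearly level. Dbp read 6.31, 6.23 and 7.05 log2 units in TCE livers, against 2.87, 2.46 and 3.14 in control livers. Every TCE liver stood far above every control liver. The TCE livers averaged 6.53 ± 0.45 and the control livers 2.83 ± 0.34 (SD, n = 3 each). TCE minus control was 3.71 ± 0.29 log2 units (limma SE). By size this was rank 1 of the 10552 genes above the filter on dim probe sets. It amounts to 13.0-fold on the array scale. All 3 control livers lay within 1 log2 unit of the lowest value of the table. The background correction is not known, and whether values this dim shrink or enlarge the fold was not tested, so its size is uncertain.

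Tef, the second family member, had 2 probe sets above the filter, and both stood higher in every TCE liver than in any control liver. The one with the higher mean over the 12 arrays, 1390819_at, read 7.11, 7.14 and 6.93 log2 units in TCE livers, against 6.60, 6.42 and 6.41 in control livers. Its log2 difference was 0.58 ± 0.09 (SE), or 1.5-fold. The other, 1385374_at, read 8.42, 8.01 and 8.01 in TCE livers, against 7.92, 7.40 and 7.68 in control livers, a difference of 0.48 ± 0.18 (SE). The gap between the groups was narrow here, with 8.01 as the lowest TCE liver and 7.92 as the highest control liver. The remaining Tef probe set, 1369919_at, sat at 2.28 on all 6 liver arrays and carries no measurement there.

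Hlf, the family member that is also known from a leukemia fusion in humans, showed no separation in liver on any of its probe sets. Its brightest, 1386641_at, read 9.75, 10.01 and 10.39 log2 units in TCE livers, against 9.68, 10.17 and 10.22 in control livers. The log2 difference was 0.03 ± 0.22 (SE). Probe sets 1385585_at and 1374709_at gave -0.08 ± 0.25 and 0.17 ± 0.29 (SE), with overlapping arrays. The groups shared a spread: replicate 1 was the lowest TCE liver and replicate 1 also the lowest control liver on these 3 probe sets. The last Hlf probe set, 1384811_at, read 2.22 to 2.37 in liver, below the filter.

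Nfil3, the repressor, ran the other way. It read 8.75, 8.34 and 8.88 log2 units in TCE livers, against 9.16, 10.15 and 9.87 in control livers. The groups did not overlap, though the highest TCE liver and the lowest control liver were only 8.88 and 9.16. The log2 difference was -1.07 ± 0.29 (SE), or 2.10-fold lower in TCE livers, and it ranked 40 among the genes with lower values.

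Each gene was taken by its brightest probe set, the one with the highest mean over the 12 arrays. On these, 2 of the 4 members (Dbp and Tef) lay higher without overlap in TCE livers and 1 (Nfil3) lower. Over all genes 12.2% lay higher without overlap, 8.31% lower and 20.5% in either direction. The members were chosen on this contrast, so their count is printed beside that background and nothing is read from it.

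**Figure D1:**
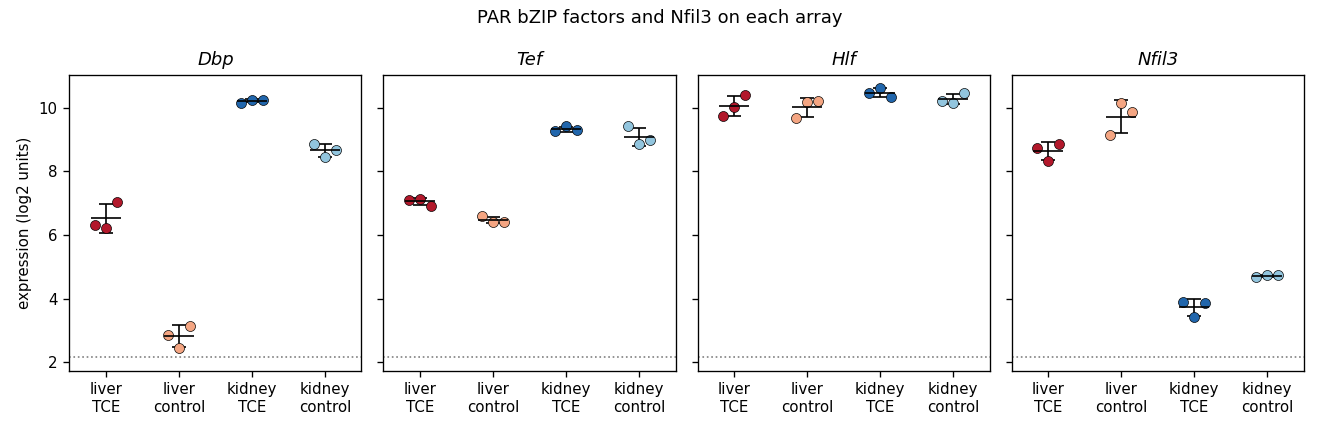
Expression in log2 units (y) of the brightest probe set of Dbp, Tef, Hlf and Nfil3 on each array (points) of the 4 groups (x), with group mean and SD (bars) and the lowest value of the table (dotted line, 2.17). Dbp is far higher in TCE than in control livers (means 6.53 and 2.83) and higher in TCE than in control kidneys (10.22 and 8.66), Nfil3 is lower in the TCE group of either tissue, and the TCE and control arrays of Hlf overlap in either tissue.

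In kidney the same directions were seen for Dbp and Nfil3, with a smaller Dbp difference. Dbp read 10.17, 10.25 and 10.26 log2 units in TCE kidneys, against 8.85, 8.46 and 8.68 in control kidneys. The 3 TCE kidneys lay within 0.1 of each other and all above the control kidneys. The TCE kidneys averaged 10.22 ± 0.05 and the control kidneys 8.66 ± 0.20 (SD, n = 3 each). TCE minus control was 1.56 ± 0.11 log2 units (SE), or 2.95-fold. By size it ranked 19 of 10563 genes, and 8 among those with higher values. These values were far from the lowest value of the table, so this fold, unlike that in liver, did not rest on values near it.

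Nfil3 was dim in kidney, at 3.90, 3.43 and 3.86 log2 units in TCE kidneys, against 4.69, 4.73 and 4.73 in control kidneys. The groups did not overlap, and the control kidneys agreed within 0.05. The log2 difference was -0.99 ± 0.14 (SE), or 1.99-fold lower in TCE kidneys. Levels this close to the lowest value leave the size of the fold uncertain.

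Nfil3 is far brighter in liver, and hepatocyte genes varied among the kidneys. Of the 7 hepatocyte markers, 4 in TCE kidneys and 2 in control kidneys averaged within 1 log2 unit of the lowest value. The summed level of the 7 was 12.5 to 13.0 in TCE kidneys and 11.5 to 13.6 in control kidneys. Cyp2e1 carried most of that sum in TCE kidneys, at 12.5 to 12.7, against 11.4 to 12.2 in control kidneys. Alb, Ttr, Serpina1 and Fgb averaged 7.21, 5.07, 2.52 and 2.91 in TCE kidneys, and 10.18, 6.57, 4.09 and 4.29 in control kidneys. Apoa1 and Tat stayed near the lowest value in both groups. Alb read 10.96, 4.36 and 6.31 in TCE kidneys, against 9.89, 12.80 and 7.84 in control kidneys. Control kidney replicate 2, the highest for Alb, and control kidney replicate 3, the lowest of the controls, both read 4.73 for Nfil3. Without control kidney replicate 2 the Nfil3 difference was -0.98. The part of liver RNA in the Nfil3 values was not tested.

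Tef and Hlf stood less apart in kidney. The Tef probe set 1390819_at read 9.26, 9.42 and 9.31 log2 units in TCE kidneys, against 9.42, 8.86 and 8.99 in control kidneys. Control replicate 1 matched the highest TCE kidney, and the log2 difference was 0.24 ± 0.16 (SE). It was 0.41 without kidney control replicate 1 and 0.13 without kidney control replicate 2. Its companion 1385374_at gave 0.24 ± 0.12 (SE), with the lowest TCE kidney at 7.52 just under the highest control kidney at 7.53.

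The 3 brighter Hlf probe sets all leaned higher in TCE kidneys, and 1 of them separated the groups. Probe set 1386641_at read 10.45, 10.62 and 10.34 log2 units in TCE kidneys, against 10.23, 10.16 and 10.46 in control kidneys, a log2 difference of 0.19 ± 0.11 (SE). Probe set 1385585_at read 8.99, 9.21 and 8.74 in TCE kidneys, against 8.63, 8.59 and 8.38 in control kidneys, with a difference of 0.45 ± 0.14 (SE) and no overlap. Probe set 1374709_at gave 0.25 ± 0.22 (SE) with overlap. The probe sets of Hlf thus disagree on whether the kidney groups stood apart.

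By brightest probe sets, 1 member (Dbp) lay higher without overlap in kidney and 1 (Nfil3) lower. Over all genes these shares were 10.3% and 9.81%, and 20.1% in either direction, and again nothing is read from the members' count. The differences in liver and kidney were 3.71 and 1.56 for Dbp, 0.58 and 0.24 for Tef, 0.03 and 0.19 for Hlf and -1.07 and -0.99 for Nfil3. Whether the effects differ between tissues was not tested, because both contrasts chose the members.

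**Figure D2:**
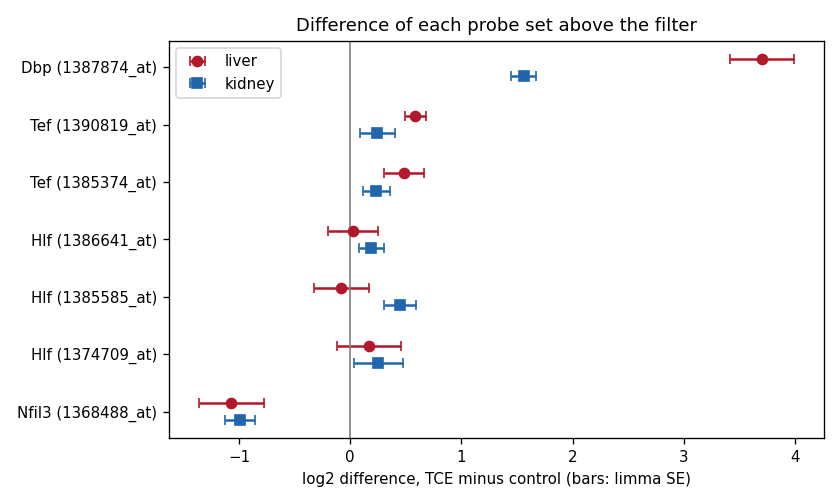
Log2 difference between TCE and control rats (x) with its limma SE (bars) for the 7 member probe sets above the filter (y), in liver (circles) and kidney (squares). Dbp lies far to the right in liver (3.71) and kidney (1.56), Nfil3 to the left in either tissue (-1.07 and -0.99), and the 3 Hlf probe sets scatter between -0.08 and 0.45.

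Levels also depended on tissue, and here too the values are descriptive, since the control arrays are those of the contrasts that chose the members. For Dbp the order was TCE kidney, control kidney, TCE liver and control liver, and no neighbouring groups overlapped. Control livers stood -5.84 ± 0.20 log2 units (SE) from control kidneys, and TCE livers -3.69 from TCE kidneys. For Nfil3 the order was reversed: control liver, TCE liver, control kidney and TCE kidney, again without overlap between neighbours, with control livers 5.01 ± 0.25 log2 units (SE) above control kidneys and TCE livers 4.93 above TCE kidneys. By brightest probe sets, 3 of the 4 members separated control liver from control kidney without overlap, against 75.7% of all genes.

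For Tef the tissue order depended on the probe set. Probe set 1390819_at placed kidney above liver, with control livers -2.61 ± 0.16 log2 units (SE) from control kidneys and no overlap. Probe set 1385374_at placed control livers 0.34 ± 0.18 (SE) above control kidneys, with overlap. Both probe sets had TCE livers above control livers.

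For Hlf the neighbouring groups overlapped on the brightest probe set, and the order of means was TCE kidney, control kidney, TCE liver and control liver. Control livers stood -0.25 ± 0.17 log2 units (SE) from control kidneys on it and -0.37 ± 0.21 on 1374709_at. Probe set 1385585_at had the opposite sign, at 0.75 ± 0.15 (SE), without overlap of the control tissues.

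Other genes were ranked by how closely their values followed a member. The measure was the root-mean-square difference over the 12 arrays, in log2 units, after the mean of each tissue was subtracted, over 10651 genes. Genes near a member were thus picked on these same values, so directions they share with it are a description only. A gene that did not vary within either tissue would stand at 1.44 from Dbp, 0.26 from Tef and 0.58 from Nfil3. Nearest to Dbp were Per3, a period family member, at 0.65, the Myb family transcription factor Mybl1 at 0.91, the calcium and integrin binding protein Cib2 at 0.92 and the clock repressor Nr1d1 (REV-ERB alpha) at 0.93, where the median gene stood at 1.44. Per3 read 6.07, 6.53 and 6.14 log2 units in TCE livers, against 3.42, 4.01 and 3.39 in control livers. In kidney it read 7.48, 7.81 and 7.63 with TCE, against 7.20, 7.06 and 7.08 in controls.

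The other neighbours of Dbp followed it in liver more than in kidney. Mybl1 differed by 2.26 in liver and -0.29 in kidney, Cib2 by 2.54 and 0.01, and Nr1d1 by 1.90 and 0.67. Nr1d1 spread widely among control livers, at 6.59, 3.63 and 5.22, against 7.24, 6.91 and 6.98 in TCE livers. The ranking rests mostly on liver, where Dbp varied most.

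Nearest to Nfil3 were the telomere protein Ten1 at 0.32, the monoglyceride lipase Mgll at 0.32, the pyruvate dehydrogenase kinase Pdk4 at 0.35 and the transcription factor Klf10 at 0.35, where the median gene stood at 0.62. All had lower means in TCE rats of either tissue: Ten1 by -0.60 in liver and -1.0 in kidney, Mgll by -0.61 and -0.44, Pdk4 by -0.86 and -1.02, and Klf10 by -0.59 and -0.35. The ranking favours genes that share the direction of Nfil3, so nothing is read from that direction. Klf10 and Pdk4 overlapped between the kidney groups, Klf10 at 8.03, 7.70 and 7.59 in TCE kidneys against 8.13, 8.25 and 7.96 in control kidneys. Pdk4 read 6.67, 6.46 and 7.51 in TCE kidneys against 8.48, 7.92 and 7.29 in control kidneys. Nearest to Tef were Akap10, a protein kinase A anchor, at 0.12, Ncoa5, a nuclear receptor coactivator, at 0.12, Arfgap3, a GTPase activator of the Golgi, at 0.13 and 4933427D14Rikl at 0.14, against a median of 0.31. These Tef neighbours differed by 0.50 to 0.62 in liver and by 0.05 to 0.19 in kidney. With the same values ranked by Pearson correlation instead, 1 of the 4 genes stayed for Dbp (Per3), 2 for Tef (Akap10 and Ncoa5) and 1 for Nfil3 (Mgll), so the names depend on the measure.

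**Figure D3:**
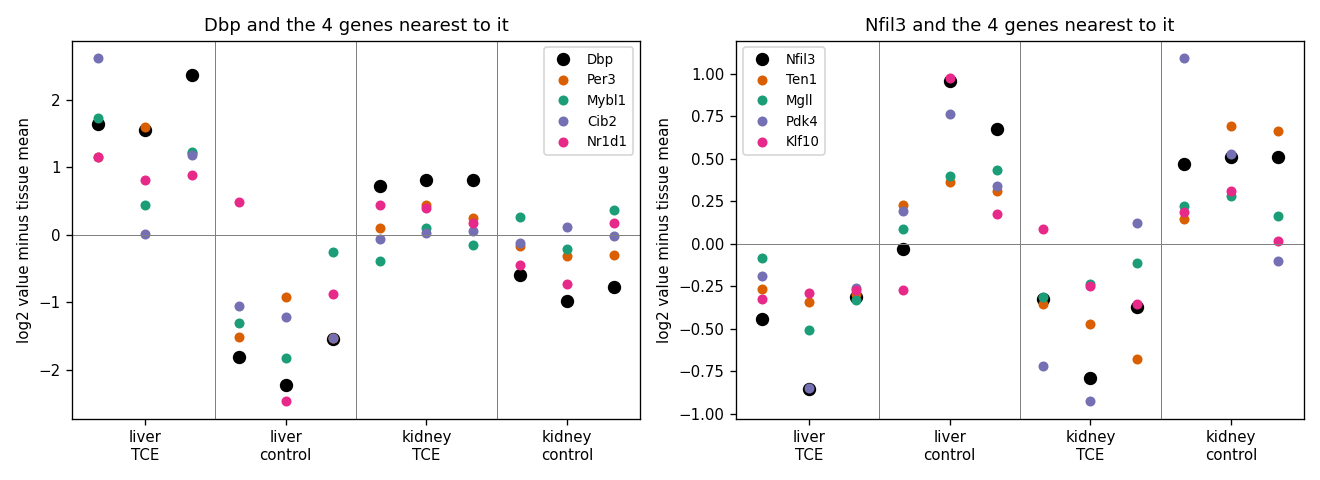
Log2 value minus the mean of its tissue (y) on each array of the 4 groups (x), for Dbp with its 4 nearest genes (left) and Nfil3 with its 4 nearest genes (right). At left most points lie above 0 in TCE livers and below 0 in control livers, except Nr1d1 in control replicate 1 (0.49), with Cib2 at 0.01 in TCE replicate 2; the genes at right are mostly below 0 with TCE in either tissue.

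The rest of the clock was read from a list of 23 core clock genes, of which 18 had a probe set and 16 passed the filter in each tissue. In liver the number past limma's adjusted p of 0.05 over all genes was 0, as for 0% of all genes. At an unadjusted p under 0.05 there were 7, of which 4 had higher and 3 lower values in TCE livers, against 8.81% and 5.84% of all genes and 14.7% in either direction. With the Gapdh gap in the fit the clock count was 3, and that over all genes 627 in place of 1546. A fit of all 12 arrays together called 5 of the list and 182 of all genes at the adjusted threshold. The median size of the difference, whatever its sign, was 0.77 log2 units over the list and 0.15 over all genes. With their signs, the medians were 0.08 and 0.03, since members went both ways. Most of these values were known when the list was written.

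Those with the smallest p in liver were Per3, Nr1d2, Cry1 and Bmal1. Per3, which stood nearest to Dbp, differed by 2.64 ± 0.22 (SE; limma adjusted p = 0.106). Nr1d2, a repressor of Bmal1 and Nfil3 (REV-ERB beta), read 10.86, 10.63 and 10.92 log2 units in TCE livers, against 9.83, 9.61 and 9.94 in control livers (1.01 ± 0.13 SE, adjusted p = 0.126). Cry1, a cryptochrome that represses Bmal1 and Clock, read 6.86, 6.60 and 6.95 in TCE livers, against 7.90, 7.79 and 7.61 in control livers (-0.96 ± 0.13 SE, adjusted p = 0.126). Bmal1, the activator that drives Dbp, read 6.27, 6.93 and 6.55 in TCE livers, against 8.12, 7.89 and 7.69 in control livers (-1.32 ± 0.20 SE, adjusted p = 0.131). None of the 4 overlapped between groups, and none passed the threshold. They were picked by smallest p, which favours genes without overlap. Over the list 8 of 16 lay without overlap, 4 higher and 4 lower, against 20.5% of all genes.

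In kidney 0 of the 16 passed the adjusted threshold in limma, as for 0% of all genes, and 9 had an unadjusted p under 0.05, 7 with higher and 2 with lower values. The shares over all genes were 7.56% and 7.26%, or 14.8% in either direction. The clock count was 5 without kidney TCE replicate 2 and also 5 without kidney TCE replicate 3. The median difference was 0.29 log2 units over the list and 0 over all genes. The smallest p belonged to Bhlhe40 and Bhlhe41, the helix-loop-helix repressors Dec1 and Dec2, and to Nr1d2 and Per3. Bhlhe40 differed by 0.56 ± 0.08 (SE, adjusted p = 0.188), Bhlhe41 by 1.09 ± 0.24 (0.223), Nr1d2 by 0.64 ± 0.11 (0.193) and Per3 by 0.52 ± 0.10 (0.213). Further Nr1d2 probe sets gave 1.39 and 0.96. In liver Bhlhe40 differed by -0.89 ± 0.74 (SE), with overlap.

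**Figure D4:**
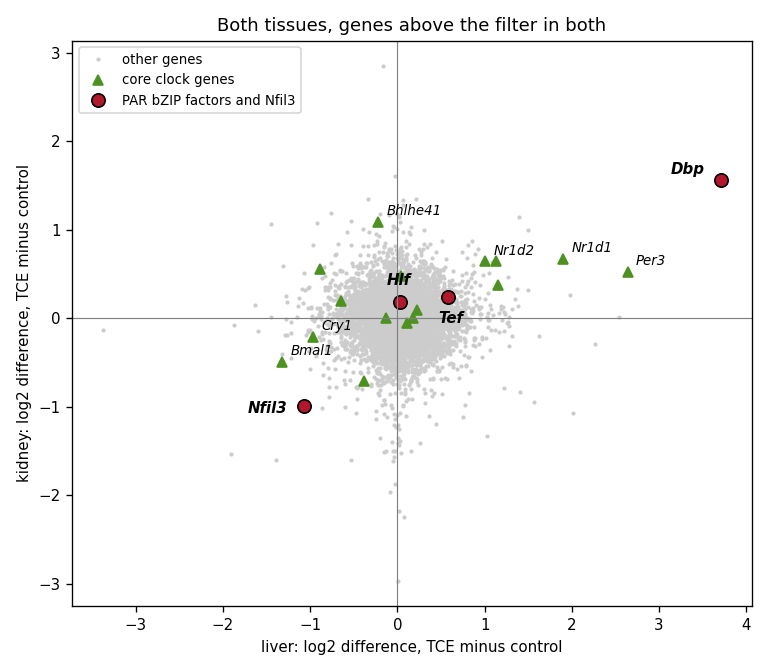
Log2 difference between TCE and control rats in liver (x) and kidney (y) for every gene above the filter in both tissues (grey), with core clock genes (triangles) and the 4 members (circles). Dbp lies alone at upper right (3.71 and 1.56), Per3 and Nr1d1 lie toward it, and Nfil3 lies at lower left (-1.07 and -0.99) beyond Bmal1 and Cry1 in kidney.

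The next list held reported targets of these factors. Of 28 listed genes 19 had a probe set, and 17 passed the filter in liver and 13 in kidney. In limma 0 passed the adjusted threshold in either tissue, and 1 in each had an unadjusted p under 0.05, where 14.7% of all genes had one in liver and 14.8% in kidney. Leaving out single arrays gave 0 to 2 in liver (0 without TCE replicate 1 or 3 or control replicate 3, and 2 without TCE replicate 2), and in kidney 2 without TCE replicate 1 and 3 without control replicate 2. The median size of the difference was 0.11 log2 units in liver, where that of all genes was 0.15, and 0.07 in kidney, where that of all genes was 0.14. In liver the smallest p belonged to Nr1i3, the xenobiotic receptor CAR (-0.27 ± 0.10 SE, limma adjusted p = 0.322), Por, the reductase that serves cytochrome P450 enzymes (-0.44 ± 0.20, 0.381, with -1.15 from a further probe set), and the cytochromes Cyp2a1 (-0.35 ± 0.20, 0.456) and Cyp2a2 (0.11 ± 0.09, 0.590). Nr1i3 read 9.04, 9.09 and 8.86 in TCE livers, against 9.13, 9.29 and 9.37 in control livers, so the groups nearly met.

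In kidney the smallest p belonged to Alas1, the first enzyme of heme synthesis and a PAR bZIP target in mouse. It read 9.89, 10.06 and 9.83 log2 units in TCE kidneys, against 9.53, 9.47 and 9.37 in control kidneys (0.47 ± 0.09 SE, limma adjusted p = 0.204). In liver it differed by 0.07 ± 0.45 with overlap. The fatty acid hydroxylase Cyp4a1 had 0.29 ± 0.16 (adjusted p = 0.435) in kidney and the thioesterase Acot2 -0.09 ± 0.09 (0.634), with 0.16 and 0.36 from further probe sets. Alb, whose promoter is shown above, had 0.01 ± 0.06 in liver, where it is among the brightest probe sets, and -2.96 ± 2.06 (0.527) in kidney, where Ttr, Serpina1 and Fgb were also highest in control replicate 2.

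Other bZIP factors, among them the C/EBP proteins that bind sites like those of Dbp, were also read. Of 19 listed, 18 had a probe set and 16 passed the filter in each tissue. In limma 0 passed the adjusted threshold in either tissue. At an unadjusted p under 0.05 there were 3 in liver, all with higher values, and 4 in kidney, 3 higher and 1 lower. Over all genes the shares were 8.81% with higher values and 14.7% in either direction in liver, and 14.8% in either direction in kidney. With the Gapdh gap as covariate there were 2 in liver and 1 in kidney. There were 5 in liver without control replicate 3, and in kidney 1 without TCE replicate 3 and 2 without control replicate 1 or 3. In liver the smallest p belonged to Mafg, a small Maf partner (0.84 ± 0.07 SE, limma adjusted p = 0.106, but -0.10 from a second probe set), the stress factor Ddit3 (0.40 ± 0.09, 0.198), Cebpz (0.23 ± 0.08, 0.296) and Atf3 (0.36 ± 0.20, 0.454), which was dim. Cebpa and Cebpb, the main C/EBP factors of hepatocytes, had -0.17 ± 0.20 and -0.46 ± 0.49.

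In kidney the smallest p belonged to Atf5 (-0.47 ± 0.08 SE, limma adjusted p = 0.188), Atf4, the factor of the integrated stress response (0.30 ± 0.10, 0.274), Crem, a modulator of cyclic AMP signalling (0.55 ± 0.18, 0.285), and Nfe2l2, which encodes Nrf2 (0.18 ± 0.07, 0.326). Crem had 4 further probe sets in kidney, and they gave 0.95, 1.06, 1.22 and 0.77. In liver the Crem difference was -0.08 ± 0.10, and 5 further probe sets gave -0.51, -0.73, -0.84, -0.21 and -0.22.

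**Figure D5:**
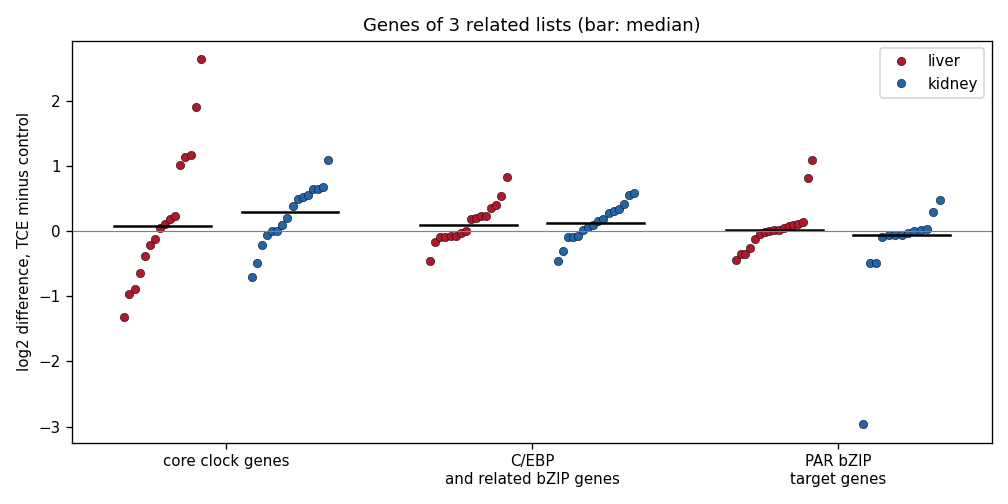
Log2 difference between TCE and control rats (y) of each gene (points) of 3 related lists (x) in liver and kidney, with the median of each list (bar). Core clock genes spread widest in liver (from Bmal1 at -1.32 to Per3 at 2.64), while reported targets of the PAR bZIP factors lie mostly near 0. Of those targets Fgf21 (1.10 ± 1.44 SE) and Cyp7a1 (0.81 ± 0.74 SE) are highest in liver and Alb lowest in kidney (-2.96 ± 2.06 SE). Each of these overlaps between TCE and control arrays.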

How the data were processed

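Gene expression was measured on Affymetrix rat genome arrays, 1 per rat and tissue, in 3 TCE and 3 control rats. The table the authors deposited holds 31099 probe sets on 12 arrays, as log2 values between 2.17 and 16.5; the log2 scale was inferred from that range. The submitters' processing notes name affy and limma. Their versions, the background correction and the normalization were stated by no source used here.

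Symbols came from GEO's annotation of the platform (436 probe sets had several, 9780 none), and RefSeq GRCr8 changed 0 symbols of the 20764 found there. A gene was represented by its singly named probe set with the highest mean over 12 arrays, and was kept if that probe set's mean in the fitted arrays lay above the 40th percentile over probe sets other than the 57 controls (2.447 log2 units in liver, 2.43 in kidney). limma 3.58.1 in R 4.3.3 (lmFit, eBayes, two-sided, Benjamini-Hochberg over all genes, threshold 0.05) compared TCE with control within each tissue. Further probe sets took their SE from the same fit over probe sets; SE is limma's moderated one. The scripts were tested on simulated data.

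Named genes were all member probe sets, the 4 genes nearest to Dbp, Tef and Nfil3, and up to 4 genes of smallest p of each list and tissue. Nr1d1, Cebpa, Cebpb, Fgf21 and Cyp7a1, and values in the other tissue, were added after values were seen. The members and lists were chosen with earlier results of these data known. The number of arrays limits the precision. Alternatives are given in the closing section.

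Numbers shared by groups were checked as pairs: deviations from group means of equally numbered liver and kidney arrays correlated at -0.0070 to 0.080 (6 pairs). In 4 of the 6 pairs, all 3 control pairs among them, the equally numbered kidney array was the best match in its group. The correlations were weak and the labels name no pairs, so the samples were treated as unpaired. The SEs between control tissues therefore take no account of rats that gave both tissues.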

Additional observations from a re-analysis of the deposited data

How the results depend on the processing

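Of 134 recomputed member differences 129 kept their sign, and 121 moved by less than 1 pooled SD between replicates. Some of these could not move. A replicate block leaves every estimate unchanged, and averaging probe sets does so for Dbp and Nfil3, with 1 probe set each. With the Gapdh gap as a covariate, Dbp in liver was 4.71, Tef in liver 0.34, Hlf in liver 0.77, Hlf in kidney 0.45 and Nfil3 in kidney -1.30. Averaging over probe sets gave 0.36 for Tef in liver and, for control liver minus control kidney, -0.78 for Tef and 0.038 for Hlf, a turned sign. Centring each array on its median gave, between the control tissues, -5.43 for Dbp, -2.20 for Tef, 5.42 for Nfil3 and 0.16 for Hlf, again a turned sign. Hlf in kidney was 0.45 on probe set 1385585_at. Averaging took in the dim probe sets 1369919_at of Tef and 1384811_at of Hlf, which lay below the filter. Centring shifted the difference between the control tissues by the same amount for every gene. The cause of the other moves was not tested. Leaving out 1 array at a time gave 3.45 to 3.86 for Dbp, 0.55 to 0.65 for Tef, -0.14 to 0.18 for Hlf and -1.35 to -0.86 for Nfil3 in liver, and 1.46 to 1.66, 0.13 to 0.41, 0.12 to 0.28 and -1.07 to -0.84 in kidney. Between control tissues the ranges were -6.0 to -5.65 for Dbp, -2.73 to -2.45 for Tef, -0.35 to -0.08 for Hlf and 4.79 to 5.29 for Nfil3.

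Counts past the adjusted threshold stayed at 0 for all lists in both tissues, except in liver, where all 12 arrays in 1 fit called 5 core clock genes and 1 C/EBP or related gene, and no filter on dim probe sets called 1 C/EBP or related gene; over all genes these fits called 182 and 17. Leaving out 1 array called 0 list genes, from 0 to 0 in every list. Unadjusted counts over all alternatives were 3 to 8 for clock genes, 2 to 5 for C/EBP and related genes and 0 to 2 for targets in liver, and 5 to 9, 1 to 6 and 0 to 3 in kidney. With a replicate block the liver differences were the same, with an SE of 0.13 for Dbp and 0.32 for Nfil3; TCE and control arrays of equal number come from different rats, and their deviations correlated at -0.095 to 0.0098, so the block pairs nothing the labels name. Of the 4 genes nearest to a member, ranking by correlation kept 1 for Dbp, 2 for Tef and 1 for Nfil3, and no filter kept 4 for each. Values near 2.17 limit what can be read of Dbp in control livers and Nfil3 in kidney.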
